A study of Mus musculus with 26 samples.

Results

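The retinoid handling genes are the 9 genes Rbp4, Stra6, Lrat, Rdh10, Dhrs3, Aldh1a1, Aldh1a2, Aldh1a3 and Cyp26b1. They were taken by symbol from the 50686 genes of the count table and followed across the 4 groups of mice. RNA-sequencing was carried out on brown adipose tissue (BAT) from 26 adult male C57BL/6J mice, labelled as the supraclavicular depot. All mice were first kept at thermoneutrality, given as 30 °C in the labels, for 2 weeks. There were 7 control littermates labelled WT and 7 mice labelled Afadin KO that stayed at 30 °C, and 5 WT mice and 7 mice labelled Afadin KO that were then held at 5 °C for 6 h. The mice labelled Afadin KO came from a cross of Adiponectin-Cre with floxed Mllt4 (Afdn), so the deletion was directed at adipocytes and the other cells of the tissue were not targeted. Whether the control littermates carried Cre or floxed alleles is not given in the sources used here.

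Retinol travels in blood bound to retinol-binding protein 4 (Rbp4) and can enter cells through the receptor Stra6. Inside the cell it is either esterified for storage by lecithin retinol acyltransferase (Lrat) or oxidized to retinal by retinol dehydrogenases such as Rdh10, a step that Dhrs3 runs backwards. The retinaldehyde dehydrogenases Aldh1a1, Aldh1a2 and Aldh1a3 convert retinal irreversibly to retinoic acid, which binds nuclear receptors, and Cyp26b1 degrades retinoic acid. In brown adipocytes, retinoic acid is known as an activator of the gene for uncoupling protein 1 (Ucp1), which releases the energy of respiration as heat.

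The libraries held 12705969 to 25732258 counts each, with a median of 17237377, and 17286 genes passed the filter on low counts. Of the 8 brown adipocyte markers, 7 had more than 10 counts in every mouse. Ucp1 was higher at 5 °C, with a log2 fold change of 4.02 (SE 0.16) in WT mice and 4.34 (SE 0.16) in mice labelled Afadin KO. Afdn itself had 196 ± 21.0 CPM (normalized counts scaled with TMM factors, mean ± SD, n = 7) in WT mice at 30 °C and 194.5 ± 27.3 (SD, n = 7) in mice labelled Afadin KO. The log2 fold change between the labels was -0.01 at 30 °C (SE 0.08, edgeR adjusted p = 0.992) and -0.33 at 5 °C (SE 0.09, edgeR adjusted p = 0.116). Adjusted p-values are those of the quasi-likelihood test in edgeR, corrected by Benjamini-Hochberg over all genes tested. At 5 °C all 7 mice labelled Afadin KO (53.2 to 65.2 CPM) were below all 5 WT mice (67.8 to 79.1 CPM), whereas at 30 °C the ranges overlapped. Between the labels at 5 °C, 13.4% of all genes had an unadjusted edgeR p below 0.05. The share of all genes without overlap is not given for this comparison. Because the targeted gene was not lower at 30 °C, groups are called by their labels. These counts sum all exons of the gene and all cells of the tissue, so they do not test the deletion in adipocytes. WT mouse 7 at 30 °C stood apart in its group. It had 14.3% of its counts from mitochondrial genes, against 33.9% to 40.5% in the other 6 mice. In mice labelled Afadin KO at 30 °C the share was 26.22% to 38.55%. Of these, mice 8, 9, 12, 13 and 14 had 29.72% or less. The part of this difference in the comparison of the labels was not tested. Values without WT mouse 7 are given where stated, and all other values include it.

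The members differed widely in level. Per kilobase of exon, which makes levels comparable between genes, the order of the group means in WT mice at 30 °C was Dhrs3, Rbp4, Rdh10, Aldh1a1, Aldh1a3, Cyp26b1, Aldh1a2, Lrat and Stra6. Dhrs3 had 29.6 ± 3.02 CPM per kb and Rbp4 had 16.2 ± 4.07 (SD, n = 7). Rdh10 followed at 3.88 ± 0.365 CPM per kb and Aldh1a1 at 2.57 ± 1.30 (SD, n = 7). The group means of the remaining synthesis and degradation enzymes lay below 1 CPM per kb in each of the 4 groups. Aldh1a3 had 0.751 ± 0.236, Cyp26b1 had 0.345 ± 0.115 and Aldh1a2 had 0.214 ± 0.0711 CPM per kb (SD, n = 7). Dhrs3 was above Rbp4, and Aldh1a1 above Aldh1a3, in all 7 WT mice at 30 °C. Rdh10 was above Aldh1a1, Aldh1a3 above Cyp26b1 and Cyp26b1 above Aldh1a2 in 6 of 7, so these neighbours did not keep their order in every mouse.

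The order was not the same in the cold. Per kilobase, Dhrs3 was above Rbp4 in all 7 WT mice and all 7 mice labelled Afadin KO at 30 °C, and in 0 of 5 and 0 of 7 at 5 °C. The median ratio of Dhrs3 to Rbp4 was 1.87 in WT mice and 2.32 in mice labelled Afadin KO at 30 °C, against 0.606 and 0.697 at 5 °C. Rdh10 was likewise above Aldh1a1 in 6 of 7 and 7 of 7 mice at 30 °C, and in 0 of 5 and 1 of 7 at 5 °C. The Dhrs3 to Rdh10 ratio, by contrast, had a median of 7.23, 7.54, 6.54 and 7.41 in WT and mice labelled Afadin KO at 30 °C and then at 5 °C, with ranges that overlapped. Cyp26b1, which was above Aldh1a2 in 6 of 7 and 7 of 7 mice at 30 °C, was above it in 1 of 5 and 2 of 7 at 5 °C. Thus among the 7 tested members 3 pairs of neighbours changed places, whereas the ratio of Dhrs3 to Rdh10 stayed within the spread between mice. This was not particular to that pair. Aldh1a1 was above Aldh1a3, and Aldh1a3 above Aldh1a2, in every mouse, also with ratio ranges that overlapped between groups. The ratio of Aldh1a3 to Cyp26b1 did not overlap between WT mice at 30 °C (0.902 to 3.445) and at 5 °C (6.18 to 10.6).

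**Figure D1:**
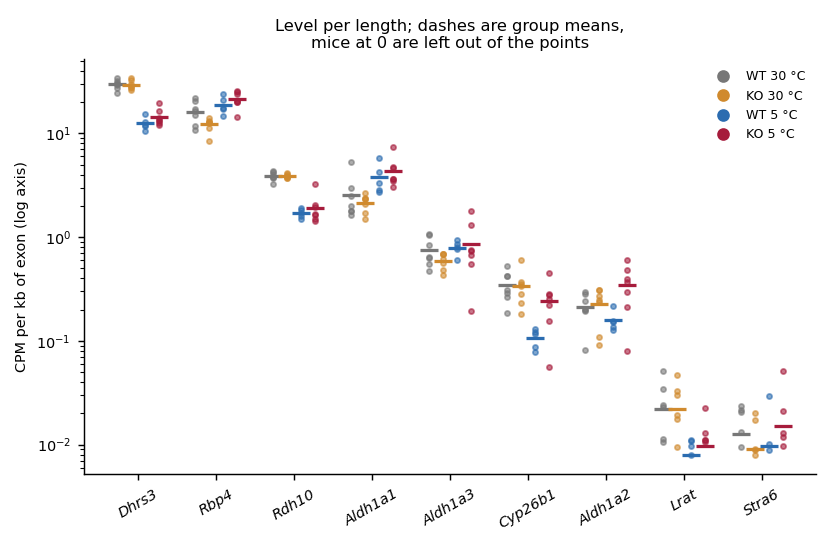
Level of the 9 retinoid handling genes per kilobase of exon (CPM per kb, log axis) in each mouse, by group; dashes are group means and mice with no count are left out of the points. Dhrs3 leads at 30 °C with 29.6 CPM per kb in WT mice, and Rbp4 leads at 5 °C with 18.8.

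Transport and storage were examined first. Rbp4 (ENSMUSG00000024990.12) lies on the minus strand of mm10 at chr19:38116629-38125281. In WT mice at 30 °C it had a lowest value of 14.6, a median of 22.0 and a highest of 29.2 CPM, and in the 5 WT mice at 5 °C it had 19.6, 23.5, 22.9, 32.0 and 28.1 CPM. These groups overlapped. In mice labelled Afadin KO, the lowest, median and highest values were 11.3, 17.2 and 18.7 CPM at 30 °C and 19.4, 27.8 and 34.6 CPM at 5 °C, so every cold mouse was above every mouse at 30 °C.

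Stra6 (ENSMUSG00000032327.14, chr9:58063788-58153996, plus strand) and Lrat (ENSMUSG00000028003.6, chr3:82892579-82903973, minus strand) did not pass the filter. Stra6 had 32 counts over all 26 mice, with 0 to 5 in a mouse, and Lrat had 41, with 0 to 5 in a mouse. The summed counts of Stra6 came to 0.0758 CPM in WT mice at 30 °C (95% exact Poisson interval 0.0347 to 0.144, counting error only) and to 0.0658 CPM at 5 °C (0.0241 to 0.143). For Lrat they came to 0.126 CPM in WT mice at 30 °C (0.0707 to 0.208) and 0.0439 CPM at 5 °C (0.0119 to 0.112), and in mice labelled Afadin KO to 0.12 CPM (0.0685 to 0.195) and 0.0536 CPM (0.0197 to 0.117). When every one of the 34761 genes with a count was tested, Lrat had a log2 fold change with cold of -1.38 (SE 0.69, edgeR adjusted p = 0.134) in WT mice and -1.08 (SE 0.61, edgeR adjusted p = 0.183) in mice labelled Afadin KO. A change of either gene was not detectable at this depth.

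The enzymes between retinol and retinal had the smallest spread between mice at 30 °C, with coefficients of variation of 4.74% to 10.2%. Rdh10 (ENSMUSG00000025921.7, chr1:16105774-16133734, plus strand) had 13.6, 15.7 and 18.1 CPM as the lowest, median and highest values in WT mice at 30 °C, and the 5 WT mice at 5 °C had 7.58, 7.10, 6.22, 6.65 and 7.94 CPM. In mice labelled Afadin KO it had 15.4, 16.0 and 17.3 CPM at 30 °C and 5.89, 6.91 and 13.4 CPM at 5 °C. At both labels the cold mice were all below the mice at 30 °C, although mouse 27 in the cold group labelled Afadin KO came close.

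Dhrs3 (ENSMUSG00000066026.14, chr4:144892827-144928209, plus strand) had 71.8, 87.7 and 99.3 CPM in WT mice at 30 °C, in the same order of lowest, median and highest. The WT mice at 5 °C had 34.9, 31.0, 45.1, 38.0 and 34.1 CPM. Mice labelled Afadin KO had 75.8, 82.7 and 100.2 CPM at 30 °C and 35.3, 39.3 and 56.8 CPM at 5 °C. Again no cold mouse reached the lowest mouse at 30 °C in either label.

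Among the enzymes that make retinoic acid, Aldh1a1 (ENSMUSG00000053279.6, chr19:20492715-20643465, plus strand) was the most abundant per kilobase in all 4 groups. In WT mice at 30 °C it had 8.10, 9.85 and 26.2 CPM as lowest, median and highest, and in the WT mice at 5 °C it had 28.7, 13.5, 14.0, 16.4 and 21.0 CPM. All 5 cold mice were above the median at 30 °C, but the groups overlapped through WT mice 4 and 7, the former with 14.8 CPM. Mice labelled Afadin KO had 7.44, 11.4 and 13.1 CPM at 30 °C and 15.1, 17.9 and 36.5 CPM at 5 °C, with no overlap.

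Aldh1a2 (ENSMUSG00000013584.5, chr9:71215789-71296243, plus strand) was sparse, with 3 to 24 counts in a mouse. Its lowest, median and highest values were 0.183, 0.463 and 0.664 CPM in WT mice at 30 °C, and the WT mice at 5 °C had 0.355, 0.487, 0.343, 0.311 and 0.288 CPM. In mice labelled Afadin KO they were 0.206, 0.563 and 0.707 CPM at 30 °C and 0.179, 0.838 and 1.35 CPM at 5 °C. The cold mice labelled Afadin KO spanned the whole range of the other groups and beyond it.

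Aldh1a3 (ENSMUSG00000015134.15, chr7:66390890-66427517, minus strand) had 2.18, 2.96 and 4.90 CPM in WT mice at 30 °C and 3.55, 2.78, 4.33, 3.95 and 3.68 CPM in the WT mice at 5 °C. Mice labelled Afadin KO had 2.00, 2.82 and 3.14 CPM at 30 °C and 0.895, 3.42 and 8.29 CPM at 5 °C. All comparisons of this gene overlapped, and its coefficient of variation was 61.4% in the cold mice labelled Afadin KO against 15.6% in the cold WT mice.

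Cyp26b1 (ENSMUSG00000063415.12, chr6:84571414-84593908, minus strand), which breaks down retinoic acid, had 1.00, 1.65 and 2.81 CPM in WT mice at 30 °C. In the 5 WT mice at 5 °C it had 0.652, 0.418, 0.472, 0.623 and 0.691 CPM, from 6 to 12 counts each, and all 5 lay below the 7 mice at 30 °C. Mice labelled Afadin KO had 0.98, 1.83 and 3.25 CPM at 30 °C and 0.299, 1.35 and 2.42 CPM at 5 °C, and these groups overlapped.

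**Figure D2:**
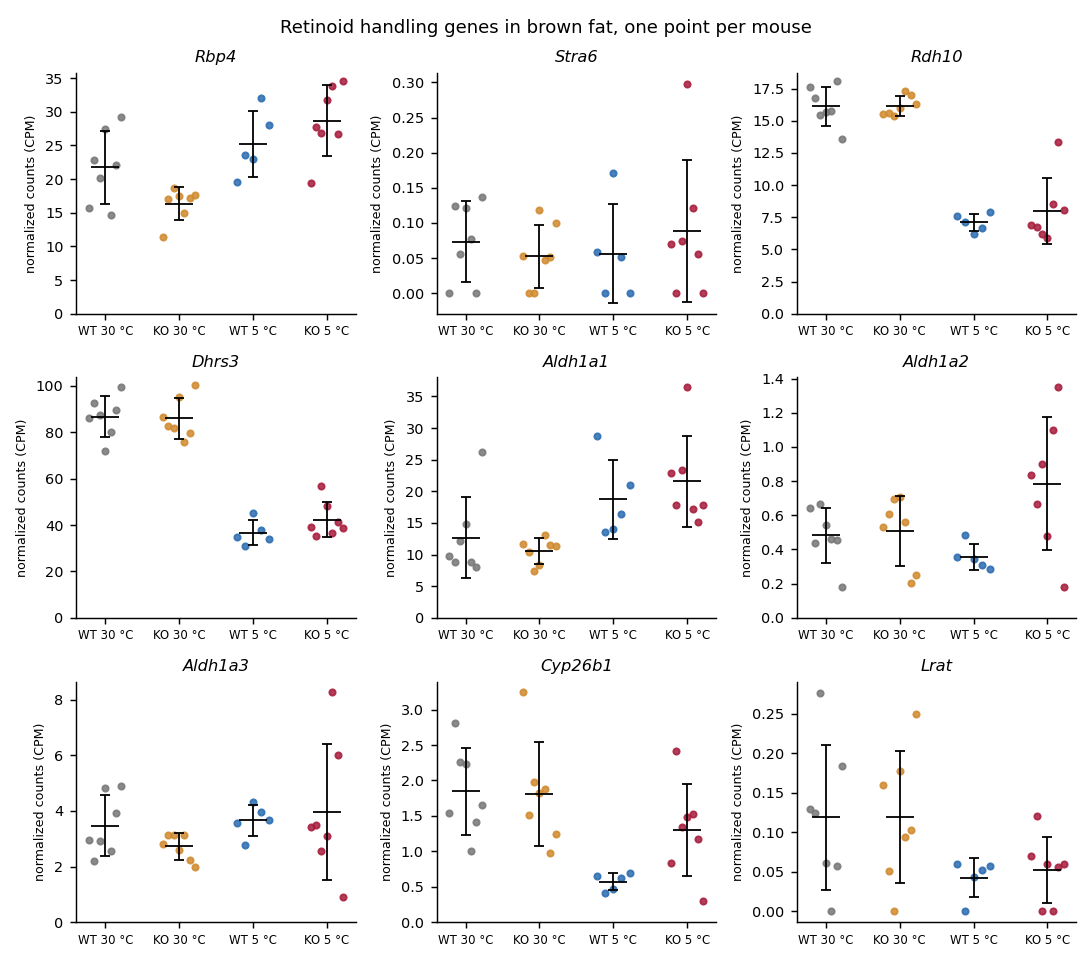
Normalized counts (CPM, scaled with TMM factors) of each of the 9 genes in each of the 26 mice, by label and temperature; points are mice, the cross bar is the mean and the whiskers are 1 SD. The cold mice of both labels lie below all mice at 30 °C for Rdh10 and Dhrs3, and the 5 cold WT mice have 0.418 to 0.691 CPM of Cyp26b1.

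To ask how retinoid handling responds to acute cold, the mice at 5 °C were compared with those at 30 °C within each label. In WT mice, Rdh10, Dhrs3 and Cyp26b1 fell. Rdh10 was 2.28-fold lower, with a log2 fold change of -1.19 (SE 0.14, edgeR adjusted p = 3.15e-08). Dhrs3 was 2.37-fold lower, at -1.24 (SE 0.11, edgeR adjusted p = 2.01e-10), and Cyp26b1 was 3.22-fold lower, at -1.69 (SE 0.36, edgeR adjusted p = 0.000181). The 4 other tested members did not pass. Aldh1a1 had 0.55 (SE 0.26, edgeR adjusted p = 0.0623) and Rbp4 had 0.21 (SE 0.16, edgeR adjusted p = 0.252). Aldh1a2 had -0.43 (SE 0.39, edgeR adjusted p = 0.344) and Aldh1a3 had 0.08 (SE 0.31, edgeR adjusted p = 0.84). Thus 3 of 7 tested members passed, while 65% of all genes tested did, 31.6% higher and 33.4% lower. The members' median log2 fold change was -0.43, and that of all genes was -0.01. The share of members called was not above that of all genes.

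In mice labelled Afadin KO, Rdh10 fell by 1.02 on the log2 scale (SE 0.12, edgeR adjusted p = 4.99e-08) and Dhrs3 by 1.03 (SE 0.10, edgeR adjusted p = 6.94e-10), both 2.03-fold lower. Aldh1a1 rose by 1.03 (SE 0.24, edgeR adjusted p = 0.000457), or 2.04-fold, and Rbp4 by 0.81 (SE 0.15, edgeR adjusted p = 2.65e-05), or 1.76-fold. The remaining 3 did not pass, with 0.63 for Aldh1a2 (SE 0.32, edgeR adjusted p = 0.0819), 0.55 for Aldh1a3 (SE 0.28, edgeR adjusted p = 0.0911) and -0.47 for Cyp26b1 (SE 0.29, edgeR adjusted p = 0.155). This made 4 of 7 tested members, 2 in each direction, where 68.6% of all genes passed, 33.7% higher and 34.9% lower. The median log2 fold change was 0.55 for the members and -0.03 for all genes.

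The groups did not overlap for the 3 members that fell in WT mice, where 22.9% of all genes were lower without overlap and 23.5% higher. In mice labelled Afadin KO, 2 members were lower and 2 higher without overlap, beside 19.3% and 21.1% of all genes. In whole tissue, fewer cells of a type and less RNA per cell cannot be told apart. Of the 6 mural cell markers, 5 fell and 1 rose in each label, and their summed level went from 589 to 823 CPM in WT mice at 30 °C to 511.5 to 600.6 CPM at 5 °C. Schwann cell markers summed to 49.8 to 63.8 CPM and to 24.2 to 39.1 CPM in the same groups, with 2 of 5 called lower in WT mice, and stromal markers to 1136 to 2850 CPM and 1119 to 1624 CPM. Lymphocyte markers summed to 3.26 to 8.02 CPM at 30 °C and 0.948 to 1.61 CPM at 5 °C in WT mice, with 3 of 6 called lower. Adipocyte markers summed to 8896 to 10110 CPM and 16470 to 18960 CPM, but their directions were mixed. Of these 8 markers, 3 were called higher and 2 lower in WT mice. Lpl had a log2 fold change of 2.05, whereas Adipoq had -0.77 and Lipe -1.08. At 30 °C, WT mouse 7 had the lowest mural sum and the highest stromal sum of its group. Without it these sums were 715 to 823 CPM and 1136 to 1676 CPM. The part of these cell types in the lower levels of Rdh10, Dhrs3 and Cyp26b1 was not tested.

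**Figure D3:**
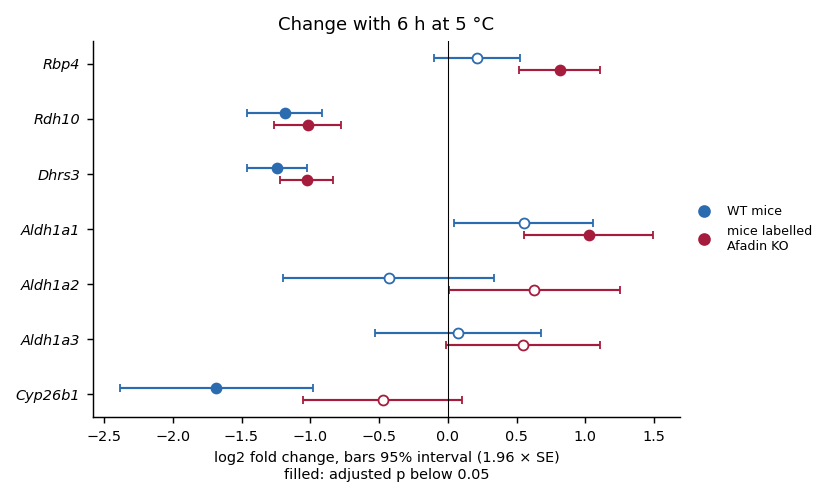
Log2 fold change of each tested member between 5 °C and 30 °C in WT mice and in mice labelled Afadin KO (x axis), with bars for the 95% interval and filled points for an adjusted p below 0.05. Rdh10 and Dhrs3 lie between -1.24 and -1.02 at both labels, and Cyp26b1 has -1.69 in WT mice and -0.47 in mice labelled Afadin KO.

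The promoter windows of 4 of the called members are shown because 2 of these genes fell with cold in WT mice and the other 2 rose in mice labelled Afadin KO. Windows were found for 7 of the 9 members, and Rdh10 and Aldh1a3 are named only. The sequences are from RefSeq (GRCm38.p6) and give the 250 bases before an annotated start, 5′ to 3′ on the gene's strand. Of several annotated starts, 1 is shown for each of Dhrs3 (3 windows), Rbp4 (2) and Aldh1a1 (2), chosen after the matches were seen. Dhrs3 is from chr4:144892577-144892826 (plus), Cyp26b1 from chr6:84593811-84594060 (minus), Rbp4 from chr19:38124812-38125061 (minus) and Aldh1a1 from chr19:20601718-20601967 (plus). Capitals mark matches, on either strand, to the nuclear receptor site AGGTCA, its variant AGTTCA, the variant GGGTCA and the variant GGTTCA. They also mark TGACG, the core of the cAMP response element, the TATA box TATAAA and the GC box GGGCGG.
Dhrs3: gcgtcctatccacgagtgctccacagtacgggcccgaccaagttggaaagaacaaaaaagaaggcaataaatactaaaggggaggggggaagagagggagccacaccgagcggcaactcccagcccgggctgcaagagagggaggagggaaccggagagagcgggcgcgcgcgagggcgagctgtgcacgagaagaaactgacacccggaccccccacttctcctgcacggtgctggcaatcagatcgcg
Cyp26b1: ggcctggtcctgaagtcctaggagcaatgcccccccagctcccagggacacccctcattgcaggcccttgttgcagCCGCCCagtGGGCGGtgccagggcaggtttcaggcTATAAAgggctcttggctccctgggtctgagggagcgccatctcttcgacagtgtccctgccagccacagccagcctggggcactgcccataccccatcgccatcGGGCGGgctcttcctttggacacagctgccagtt
Rbp4: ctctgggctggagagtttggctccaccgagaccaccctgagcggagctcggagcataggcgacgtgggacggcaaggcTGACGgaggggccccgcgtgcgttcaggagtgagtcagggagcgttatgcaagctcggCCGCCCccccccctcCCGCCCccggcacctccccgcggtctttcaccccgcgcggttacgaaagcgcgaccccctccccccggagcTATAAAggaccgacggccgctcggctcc
Aldh1a1: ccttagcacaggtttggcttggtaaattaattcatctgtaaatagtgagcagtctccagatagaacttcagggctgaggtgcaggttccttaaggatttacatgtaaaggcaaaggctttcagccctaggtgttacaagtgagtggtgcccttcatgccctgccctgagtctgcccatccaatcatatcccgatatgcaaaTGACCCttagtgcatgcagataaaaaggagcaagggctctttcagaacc
The Dhrs3 window held none of these letters. In Cyp26b1 there were 3 GC boxes and 1 TATAAA, and in Rbp4 2 GC boxes, 1 TATAAA and 1 TGACG. The first base of TATAAA lay at -139 from the start in Cyp26b1 and at -28 in Rbp4. Aldh1a1 had 1 receptor site, GGGTCA, on the other strand. In the windows not shown, Rbp4 had 1 GGGTCA match and no other letters searched, and Dhrs3 and Aldh1a1 had 0 matches. Among 32851 mouse windows of 300 bases, GGGCGG was found in 35.7%, TATAAA in 13.6%, TGACG in 20.8% and GGGTCA in 13.7%. The site AGGTCA was found in 16.3%, the variant AGTTCA in 14% and the variant GGTTCA in 10.4%. Such receptor sites in direct repeat 5 bases apart, an arrangement known for retinoic acid receptors, were in 0.0974% of all windows. Direct repeats 2 bases and 1 base apart were in 0.268% and 0.222%. Each of these arrangements was in 0 of the windows of the members. A match or its absence in these letters describes the window only.

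Next, mice labelled Afadin KO were compared with WT mice at each temperature. At 30 °C, 0 of the 7 tested members passed, beside 0.081% of all genes, and 1 had an unadjusted p below 0.05, beside 7.65% of all genes. That gene was Rbp4, with 16.3 ± 2.47 CPM in mice labelled Afadin KO and 21.7 ± 5.47 in WT mice (SD, n = 7 each). All 7 mice labelled Afadin KO were below the WT mean, but the groups overlapped, and the log2 fold change of -0.41 (SE 0.15, edgeR adjusted p = 0.446) did not pass. Without WT mouse 7 it was -0.31. The intervals of the difference were narrower for Rdh10 and Dhrs3 than for Aldh1a1, which had -0.74 to 0.20 on the log2 scale. For Rdh10 the 95% interval ran from -0.23 to 0.24 and for Dhrs3 from -0.20 to 0.18 on the log2 scale.

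At 5 °C, 0 of 7 tested members passed, beside 0.139% of all genes, and 2 had an unadjusted p below 0.05, beside 13.4% of all genes. Cyp26b1 had 1.30 ± 0.654 CPM in mice labelled Afadin KO (SD, n = 7) and 0.571 ± 0.119 in WT mice (SD, n = 5). In 6 of the 7 mice labelled Afadin KO it was above every WT mouse, with mouse 28 below all of them. The log2 fold change was 1.18 (SE 0.36, edgeR adjusted p = 0.16), with a 95% interval from 0.46 to 1.89.

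Aldh1a2 had 0.786 ± 0.389 CPM in mice labelled Afadin KO (SD, n = 7) and 0.357 ± 0.0775 in WT mice (SD, n = 5) at 5 °C. Of the 7 mice labelled Afadin KO, 5 were above every WT mouse. The log2 fold change was 1.14 (SE 0.37, edgeR adjusted p = 0.187), with a 95% interval from 0.41 to 1.87. Mesothelial cells are known to express Aldh1a2. Summed, 7 mesothelial markers had 2.65 to 6.99 CPM in cold WT mice. In cold mice labelled Afadin KO they had 4.06 to 14.1 CPM. Of these markers, Upk3b, Upk1b, Wt1, Krt8, Krt19 and Msln had 0 to 6 counts in a mouse, while Lrrn4 had 38 to 185. Their part in the level of Aldh1a2 was not tested. The other 5 tested members had log2 fold changes of 0.11 to 0.21.

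The difference of the cold responses between the labels was then tested as an interaction. Again 0 of 7 tested members passed, beside 1.16% of all genes, while 3 had an unadjusted p below 0.05, beside 16.2% of all genes. The cold response of Cyp26b1 was 1.21 higher on the log2 scale in mice labelled Afadin KO (SE 0.46, edgeR adjusted p = 0.186). For Aldh1a2 the difference was 1.06 (SE 0.50, edgeR adjusted p = 0.299), and for Rbp4 it was 0.60 (SE 0.22, edgeR adjusted p = 0.169). The falls of Rdh10 and Dhrs3 differed by 0.17 (95% interval -0.19 to 0.53) and 0.22 (-0.07 to 0.50). So Cyp26b1 passed in WT mice alone and Rbp4 and Aldh1a1 in mice labelled Afadin KO alone, but the difference between the labels did not pass for any of the 3. These comparisons share mice, and the median log2 difference was 0.48 for the members and 0.04 for all genes.

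**Figure D4:**
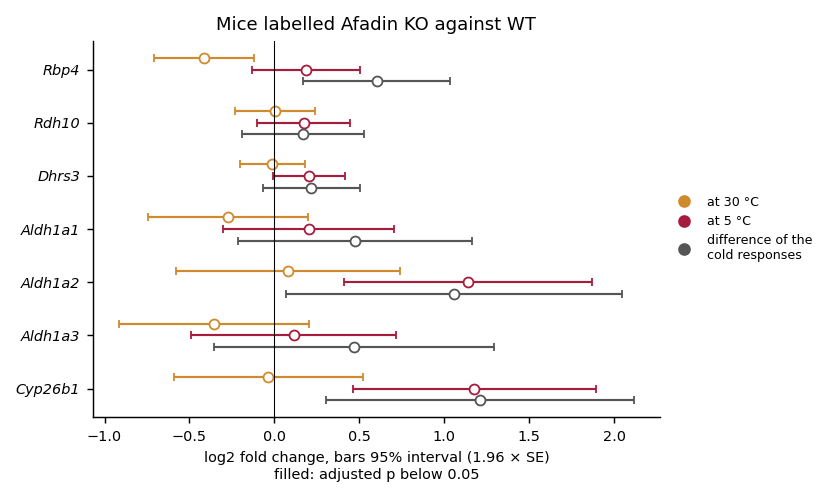
Log2 fold change of each tested member between mice labelled Afadin KO and WT mice at 30 °C and at 5 °C, and the difference of the 2 cold responses (x axis), with bars for the 95% interval. All points are open because no adjusted p was below 0.05, and Cyp26b1 and Aldh1a2 have 1.18 and 1.14 at 5 °C.

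Single mice carried much of the spread of the sparse members. In the cold group labelled Afadin KO, mouse 28 had the lowest Aldh1a2, Aldh1a3 and Cyp26b1 and the highest Rbp4 and Ucp1 (20970 CPM). Its share of mitochondrial counts was 19.2%, against 25.3% to 39.3% in the other 6 mice of the group. Without it, Aldh1a2 with 0.81 (edgeR adjusted p = 0.0136) and Aldh1a3 with 0.72 (adjusted p = 0.00838) passed for the cold response in mice labelled Afadin KO. Mouse 23 had the highest Cyp26b1, 2.42 CPM, and without it the cold response of Cyp26b1 in mice labelled Afadin KO was -0.71 (edgeR adjusted p = 0.0341). The same mouse had 18.1 CPM of 6 summed lymphocyte markers, against 0.972 to 2.02 CPM in the other 6 mice of the group. Mouse 27 had the highest Rdh10 and Aldh1a2.

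Aldh1a1 moved with skeletal muscle genes. In 4 of 4 groups, the mouse with the most Aldh1a1 also had the highest sum of 6 skeletal muscle markers. These were WT mouse 7 at 30 °C with 26.2 CPM of Aldh1a1 and 5128 CPM of muscle markers, and mouse 12 labelled Afadin KO at 30 °C with 13.1 and 1408 CPM. In the cold they were WT mouse 16 with 28.7 and 4469 CPM, and mouse 25 labelled Afadin KO with 36.5 and 7032 CPM. The muscle markers ranged from 6.25 to 5128 CPM in WT mice at 30 °C, from 4.07 to 1408 in mice labelled Afadin KO at 30 °C, from 0.814 to 4469 in cold WT mice and from 1.63 to 7032 in cold mice labelled Afadin KO. None of the 6 passed for cold at either label, and Ckm and Myh1 were at 0 in 1 and 2 of the 26 mice.

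Whether the cold response of Aldh1a1 passed in WT mice turned on single mice. It was 0.55 with all mice, 0.82 without WT mouse 7 at 30 °C (edgeR adjusted p = 0.00191), and 0.65 and 0.64 without cold WT mice 17 and 18 (edgeR adjusted p = 0.0408 and 0.0429). Without cold WT mouse 16, which had the most muscle markers of its group, it was 0.35 (edgeR adjusted p = 0.257). Without the 3 mice above 4000 CPM of muscle markers it was 0.64 (edgeR adjusted p = 0.00269) in WT mice and 0.85 (adjusted p = 2.55e-05) in mice labelled Afadin KO. With the muscle markers as a covariate, the values were 0.50 (edgeR adjusted p = 0.00817) and 1.01 (adjusted p = 1.27e-06). Rbp4 also passed in WT mice without those 3 mice, at 0.38 (edgeR adjusted p = 0.0497), which made 5 members in place of 3. These alternatives were chosen after seeing the data.

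**Figure D5:**
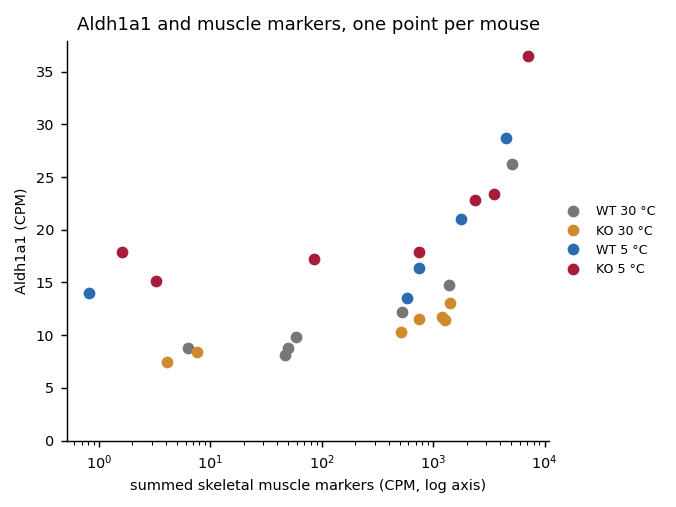
Aldh1a1 (CPM) against the sum of 6 skeletal muscle markers (CPM, log axis) in each of the 26 mice, coloured by group. The mouse furthest right in each group is also its highest, up to 36.5 CPM of Aldh1a1, and cold mice with few muscle counts still have 14.0 to 17.9 CPM.

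The other genes of the pathway were taken from a list of 63, of which 37 were tested. With cold, 27 of the 37 passed in WT mice, beside the 65% of all genes. In WT mice 11 rose and 16 fell, and 14 rose and 15 fell in mice labelled Afadin KO. By role, binding and transport proteins had 3 of 11 genes tested, of which 1 rose and 1 fell at each label. Of 11 tested enzymes between retinol and retinal, 2 rose and 4 fell in WT mice, and 4 rose and 5 fell in mice labelled Afadin KO. The 7 tested genes of retinyl esters and carotenoids had 2 rising and 5 falling in WT mice, and 2 and 3 in mice labelled Afadin KO. Of the 10 nuclear receptors for retinoids and their partners, 3 rose and 4 fell in WT mice, and 4 and 4 did so in mice labelled Afadin KO. Known target genes of retinoic acid split evenly, with 4 rising and 4 falling of 9 tested at each label. The other 3 genes of retinoic acid breakdown did not pass the filter, so Cyp26b1 stood for that step.

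The largest change was that of Dhrs9, a dehydrogenase that can oxidize retinol. It had 1.00, 1.77 and 4.36 CPM as lowest, median and highest in WT mice at 30 °C and 543, 648 and 791 CPM at 5 °C. The log2 fold change was 8.25 (SE 0.42, edgeR adjusted p = 3.32e-15) in WT mice and 7.33 (SE 0.39, adjusted p = 6.47e-15) in mice labelled Afadin KO. Rdh10 and Dhrs9 thus moved in opposite directions, and per kilobase Dhrs9 went from 0.498 ± 0.263 (SD, n = 7) to 153.7 ± 22.7 CPM per kb (SD, n = 5) in WT mice, above each of the 9 members.

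Rbp7, a cellular retinol-binding protein, had 5.91 ± 1.65 CPM (SD, n = 7) at 30 °C and 82.7 ± 14.4 (SD, n = 5) at 5 °C in WT mice, with a log2 fold change of 3.81 (SE 0.20, edgeR adjusted p = 4.37e-15). Lpl, the lipoprotein lipase that also releases retinol from retinyl esters carried in lipoproteins, rose by 2.05 (SE 0.12, edgeR adjusted p = 3.44e-14). In the other direction, Scarb1, a scavenger receptor that takes up carotenoids, fell by 1.39 (SE 0.10, edgeR adjusted p = 5.27e-12).

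No other pathway gene passed between the labels at 30 °C or at 5 °C, but 1 passed for the interaction. This gene was Dhrs7, a short-chain dehydrogenase. It had 86.5 ± 10.7 CPM in WT mice and 73.5 ± 5.36 in mice labelled Afadin KO at 30 °C (SD, n = 7 each), and 27.9 ± 2.05 (SD, n = 5) and 36.9 ± 6.19 (SD, n = 7) at 5 °C. Its cold response was -1.63 in WT mice and -0.99 in mice labelled Afadin KO, and the difference of 0.64 (SE 0.13) passed (edgeR adjusted p = 0.0239). Leaving out mouse 8 labelled Afadin KO at 30 °C gave 0.61 (edgeR adjusted p = 0.0527). The call was also lost with library size alone as the scaling (0.45, edgeR adjusted p = 0.218) and with no filter on low counts (0.64, edgeR adjusted p = 0.0544).

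Finally, the genes whose log2 CPM was most like each member over the 26 mice were named from 12079 protein-coding genes, as a description of likeness only, since the values of 1 mouse come from 1 library and the 4 groups differ by temperature. Dhrs3 was most like Esyt1 (Pearson's r = 0.977) and Slc1a5 (0.975), and Rdh10 most like Slc46a3 (0.974) and Rhpn2 (0.967). With the group means removed, these values were 0.693, 0.686, 0.779 and 0.707. The pair Rdh10 and Dhrs3 had r = 0.856 over all mice and -0.343 with the group means removed, so their likeness lay between groups and not between mice of a group. Aldh1a1 differed in this, since its likeness to Rragd (0.956) and Atp5g1 (0.948) was 0.943 and 0.955 with the group means removed. Rbp4 was most like Ctsd (0.879) and Lss (0.839), which had 0.71 and 0.70 within groups. The sparse members had lower values, with Cyp26b1 most like Ttc7 (0.802) and Prex1 (0.794), Aldh1a2 most like Lmnb1 (0.721) and Zdhhc20 (0.714) and Aldh1a3 most like Ifitm3 (0.632) and Selp (0.624).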

How the data were processed

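The counts of 26 BAT libraries in 4 groups were used, grouped by the sample labels. Total RNA was depleted of rRNA and sequenced as stranded, single-end libraries. Per the submitters' processing notes, STAR 2.5.2b was used for alignment to mm10 and featureCounts 1.5.2 for the gene counts, which the authors deposited as raw, whole-number counts. The strand setting of the counting is not given in the sources used here, and no other gene shares exon bases with a member.

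The quasi-likelihood test of edgeR 4.0.16 was used in R 4.3.3, in the legacy mode that matches edgeR 3.22.0. Genes were filtered by group with filterByExpr, scaled with TMM factors and fitted in 1 model of the 4 groups. P-values were adjusted by Benjamini-Hochberg over 17286 genes with a threshold of 0.05. The 95% intervals of fold changes are normal intervals from the SE. Log2 CPM had a prior count of 2. Lengths are those of all exons joined in a later GENCODE release of the same genome build, in which 50462 of 50686 entries had a symbol. All 73 pairs of mice of 1 group differed by more than sampling noise (lowest chi-square per gene 5.17). The test was checked on simulated counts with known changes.

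The genes named are the 9 members, Afdn and Ucp1 as checks, of the other retinoid pathway genes those called between the labels or for the interaction and the 3 with the largest change in each direction with cold in WT mice (called, mean of at least 1 CPM), and for each member the 2 most similar genes. Of these, 1 gene that this rule names is not reported here. The members, lists and tests were chosen with earlier results of these data known. The alternatives tried were DESeq2 1.42.0 (Wald test), other scalings and filters, edgeR's revised method, a fit of only the groups compared, leaving out each mouse in turn, and, added after seeing the data, muscle markers.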

Additional observations from a re-analysis of the deposited data

Results flagged for a closer look

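In groups of 4 to 10 mice, the highest and lowest mouse of each of 15 genes was compared with the rest, and in 5 of 60 groups 1 mouse lay farther from its nearest neighbour than Dixon's 95% limit for that group size. Chance flags about 1 in 20 groups. The distances were taken on log2 CPM, whereas the levels named here are CPM. Aldh1a2 in WT mouse 7 at 30 °C was the lowest of its group at 0.183 CPM, from 4 counts. Its gap was 0.64 of the group's range in log2 CPM, against a limit of 0.568. Afdn in the same mouse was the lowest of its group at 151 CPM. Dhrs9 was highest at 10.3 CPM in mouse 13 labelled Afadin KO at 30 °C. Mouse 27 labelled Afadin KO at 5 °C was the lowest of its group for Rbp7 at 52.5 CPM and for Lpl at 4680 CPM.

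Dhrs7 was picked out because its cold response differed between the labels in the test of the interaction, by 0.638 on the log2 scale. It did not pass without mouse 8 labelled Afadin KO at 30 °C, with library size alone or with no filter.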

How the results depend on the processing

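No paired analysis was possible because the replicate numbers of the labels are not shared between groups. The sparse members (3 to 24 counts of Aldh1a2 and 5 to 61 of Cyp26b1 in a mouse) set the limit of depth. The lower levels of Rdh10 and Dhrs3 with cold in both labels and of Cyp26b1 in WT mice, and the higher levels of Aldh1a1 and Rbp4 in mice labelled Afadin KO, passed under every setting in which they were tested. No member passed between the labels or for the interaction under any setting. Where a value changed sign or a count moved, the cause was not tested.

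Members called with cold ranged from 3 to 4 in WT mice and from 4 to 6 in mice labelled Afadin KO when each mouse was left out in turn, and 5 were called in WT mice without the mice with the most muscle markers. With at least 10 counts in every mouse, 2 were called in WT mice, since Cyp26b1 was then not tested. Over all genes, 14 genes passed between the labels at 30 °C, 7 to 93 with a mouse left out, 40 with DESeq2, 34 with library size alone, 9 with every gene that had a count and 91 without the muscle-rich mice. At 5 °C the 24 genes became 7 to 100 with a mouse left out, 162 with DESeq2, 5 with library size alone, 15 with no filter, 45 with at least 10 counts in every mouse and 9 with only the groups compared. For the interaction the 200 genes became 49 to 371 with a mouse left out, 434 with DESeq2 and 27 with no filter.

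Library size alone moved the median of all genes to -0.14 and -0.34 for cold in WT mice and in mice labelled Afadin KO, to 0.13 for the labels at 30 °C and to -0.15 for the interaction. Under it Aldh1a3 with cold in WT mice was -0.064 (upper-quartile factors -0.032), the interaction of Rdh10 was -0.028, and at 30 °C between the labels Cyp26b1 was 0.121, Dhrs3 0.121 and Afdn 0.154, all changed in sign. Cyp26b1 with cold in mice labelled Afadin KO passed under it at -0.81. At 30 °C, Dhrs3 also changed sign with upper-quartile factors (0.018), no filter (0.002), only the groups compared (0.003) and without the muscle-rich mice (0.024), and Afdn with upper-quartile factors (0.021), no filter (0.004), the 10-count filter (0.002) and only the groups compared (0.005). Without the muscle-rich mice, Aldh1a1 was 0.018, Aldh1a2 -0.084 and Rdh10 -0.035 at 30 °C. Leaving out each mouse, values that changed sign ranged at 30 °C from -0.357 to 0.033 for Aldh1a1, -0.066 to 0.234 for Aldh1a2, -0.225 to 0.092 for Cyp26b1, -0.053 to 0.041 for Dhrs3, -0.017 to 0.034 for Rdh10 and -0.048 to 0.056 for Afdn. They ranged at 5 °C from -0.174 to 0.29 for Aldh1a3 and -0.004 to 0.233 for Rdh10, with cold in WT mice from -0.011 to 0.169 for Aldh1a3 and for the interaction from -0.008 to 0.232 for Rdh10. The interaction of Dhrs7 was 0.45 with library size alone (edgeR adjusted p = 0.218) and 0.64 with no filter (edgeR adjusted p = 0.0544). Aldh1a1 with cold in WT mice also passed with DESeq2, at 0.56 (DESeq2 adjusted p = 0.0459), and with DESeq2 2 of the other pathway genes passed between the labels at 5 °C.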
